A study of Mus musculus with 6 samples.

Results

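The RNA levels of 28 mouse genes of cholesterol synthesis, uptake and sensing were compared between cells without Mki67 and wild-type (WT) cells. The genes were a list of names in pathway order, drawn up with earlier results of these data known though with no rule on their levels, out of 54146 genes in the count table. The cells were NIH/3T3, an immortalised line of embryonic fibroblasts of Swiss albino mice. Mki67 encodes Ki-67, a nuclear protein of proliferating cells that coats mitotic chromosomes. The groups were Mki67-/- clone 1, Mki67-/- clone 2 and WT, with 2 libraries of ribosome-depleted, strand-marked total RNA each. All were grown in the same DMEM medium, which held glucose, pyruvate and 10% foetal bovine serum. Each knockout line is 1 clone, so what the loss of Mki67 did and what set that clone apart for other reasons cannot be told apart. Whether both libraries of a group stem from separate cultures is not in the labels, so the p-values speak of library spread alone, which may be technical.

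Cholesterol is built from acetyl-CoA through mevalonate, isoprenoid pyrophosphates, squalene and lanosterol. The transcription factor SREBP-2, made from Srebf2, drives the genes of this route together. When sterol runs low in the endoplasmic reticulum, Scap escorts SREBP-2 to the Golgi, where it is cut and its active fragment is freed, and Insig proteins hold Scap back when sterol is plentiful. Cultured fibroblasts also take up cholesterol from lipoproteins of the serum.

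The promoters of these genes are shown first, since SREBP-2 is known to act at promoters with NF-Y and Sp1. A window of 250 bases before to 50 bases after the gene start was found in RefSeq (GRCm38.p6) for 22 of the 28 genes, and none for Fdps, Fdft1, Sqle, Stard4, Npc1 and Abcg1. The sterol element letters TCACNCCAC, searched on both strands, were in the windows of 1 of 22 genes (4.55%), Hmgcs1, against 1.40% of the 9404 tested genes with a window and 1.24% of all 32841 windows. The NF-Y letters CCAAT were in 19 of 22 genes (86.4%), against 44.0% of tested genes with a window and 37.4% of all windows. The Sp1 letters GGGCGG were in 21 of 22 genes (95.5%), against 69.9% of tested genes with a window and 35.7% of all windows. Some genes had several windows, and a match in any of them was counted. Of the genes whose level fell in the knockout clones as given below, 8 of 9 with a window held CCAAT, and of those that did not pass the test 9 of 10 did. The CCAAT letters thus stood in both kinds of gene. A window without the letters says only that these letters are not in it. 4 windows show these letters in genes that fell, Mvk and Mvd, and in genes that did not pass the test, Hmgcs1 and Msmo1. They are written 5′ to 3′ on the strand of the gene, with TCACNCCAC and CCAAT, which reads ATTGG on the other strand, in capitals. They lie at chr5:114444019-114444318 on the plus strand (Mvk), chr8:122443373-122443672 on the minus strand (Mvd), chr13:119690101-119690400 on the plus strand (Hmgcs1) and chr8:64733529-64733828 on the minus strand (Msmo1).
Mvk: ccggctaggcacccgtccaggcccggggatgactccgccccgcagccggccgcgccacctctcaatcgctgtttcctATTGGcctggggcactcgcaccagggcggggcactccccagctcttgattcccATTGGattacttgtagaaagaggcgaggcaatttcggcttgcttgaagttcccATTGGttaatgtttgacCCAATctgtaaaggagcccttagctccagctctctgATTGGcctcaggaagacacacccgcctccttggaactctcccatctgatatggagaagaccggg
Mvd: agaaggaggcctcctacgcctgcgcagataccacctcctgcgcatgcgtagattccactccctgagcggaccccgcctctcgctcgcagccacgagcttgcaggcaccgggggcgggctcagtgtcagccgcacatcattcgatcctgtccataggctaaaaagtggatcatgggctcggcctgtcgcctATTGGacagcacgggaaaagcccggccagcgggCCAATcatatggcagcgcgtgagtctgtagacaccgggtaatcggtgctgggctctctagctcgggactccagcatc
Hmgcs1: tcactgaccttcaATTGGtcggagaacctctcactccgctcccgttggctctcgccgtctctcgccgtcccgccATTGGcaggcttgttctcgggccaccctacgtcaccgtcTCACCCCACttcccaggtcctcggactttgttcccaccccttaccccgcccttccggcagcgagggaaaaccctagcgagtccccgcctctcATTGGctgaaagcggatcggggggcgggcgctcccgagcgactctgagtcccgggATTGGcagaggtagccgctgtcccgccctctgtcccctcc
Msmo1: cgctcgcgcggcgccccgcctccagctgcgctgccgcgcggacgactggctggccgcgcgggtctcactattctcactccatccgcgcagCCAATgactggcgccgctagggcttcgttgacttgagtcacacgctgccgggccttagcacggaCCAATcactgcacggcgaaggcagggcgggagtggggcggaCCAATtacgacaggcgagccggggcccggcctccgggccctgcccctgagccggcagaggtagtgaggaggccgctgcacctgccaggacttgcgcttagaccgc
The Mvk window held 5 copies of CCAAT, Mvd 2, Hmgcs1 4 and Msmo1 3, counting both strands.

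Counts assigned to genes summed to 15491116 and 19678782 in the clone 1 libraries, 15087148 and 15862850 in the clone 2 libraries, and 3873249 and 11377172 in the WT libraries, so the first WT library was the shallowest. Mki67 itself was at 4.24 and 4.59 CPM, read counts scaled to library size, in clone 1, 4.32 and 7.70 CPM in clone 2, against 49.2 and 55.2 CPM in WT (log2 fold change of the 2 clones' mean over WT −3.35 ± 0.18, SE; adjusted p = 1.13e-08). The protocol text speaks of 4T1, a mammary tumour line, whereas titles and sources say NIH/3T3. The epithelial marker Epcam was at 0 in all 6 libraries, and the 5 fibroblast markers together held 5523 to 6446 CPM in the 4 knockout libraries, against 7213 and 8171 CPM in WT. Of these, Vim (−0.60) and Thy1 (−1.03) fell, Col1a1 rose (0.75), and Col1a2 (0.06) and Pdgfrb (−0.17) did not pass the test. The 4 epithelial markers together reached 0.783 to 1.16 CPM in the knockout libraries and 0.541 and 0.815 CPM in WT. The 4 adipocyte markers together reached 0.126 to 0.457 CPM in the knockout libraries and 0.272 and 0.722 CPM in WT. The 4 macrophage markers reached 31.0 to 35.9 CPM in the knockout libraries and 19.5 and 25.0 CPM in WT. Of these, Csf1r was higher in the clones (2.18 ± 0.21; adjusted p = 3.62e-06), with 46.8% of its stranded counts on the opposite strand, and Cd68 did not pass the test (−0.23 ± 0.16; adjusted p = 0.288). Adgre1 was at 0 in all 6 libraries, and Ptprc was at 0 in the 4 knockout libraries. The part of these markers in the sterol genes' values was not tested.

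Levels are CPM of the scaled library size, and a gene is called where the adjusted p of edgeR's quasi-likelihood test, over all 13120 genes tested, was below 0.05. Of the 28 sterol genes, 26 passed the filter on low counts. Over the mean of both clones, 11 of the 26 (42.3%) were called lower than in WT and 2 (7.69%) higher, where 18.2% of all tested genes were called lower and 16.6% higher. The median log2 fold change was −0.14 over the 26 genes and 0.005 over all tested genes. All 4 knockout libraries lay below both WT libraries for 11 genes and above both for 3, a pattern that 24.7% and 25.1% of all tested genes showed. By role, 0 of 2 genes fell from acetyl-CoA to mevalonate, 4 of 5 from mevalonate to farnesyl pyrophosphate, 2 of 3 from squalene synthesis to lanosterol and 2 of 8 from lanosterol to cholesterol. Among the others, 2 of 4 sensing genes, 1 of 3 transport genes and 0 of 1 of receptor turnover fell. In bulk RNA, fewer cells of a kind and less RNA per cell cannot be told apart. The 18 enzymes together summed to 2684 and 2576 CPM in clone 1, 2461 and 2342 CPM in clone 2, against 2901 and 2999 CPM in WT. The clone 1 mean was thus 10.8% and the clone 2 mean 18.6% below the WT mean. The genes that fell held 48.7% to 59.1% G and C bases, middling to high among all tested genes. Changes in these libraries ran with base composition over all genes, with values given after the genes themselves.

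**Figure D1:**
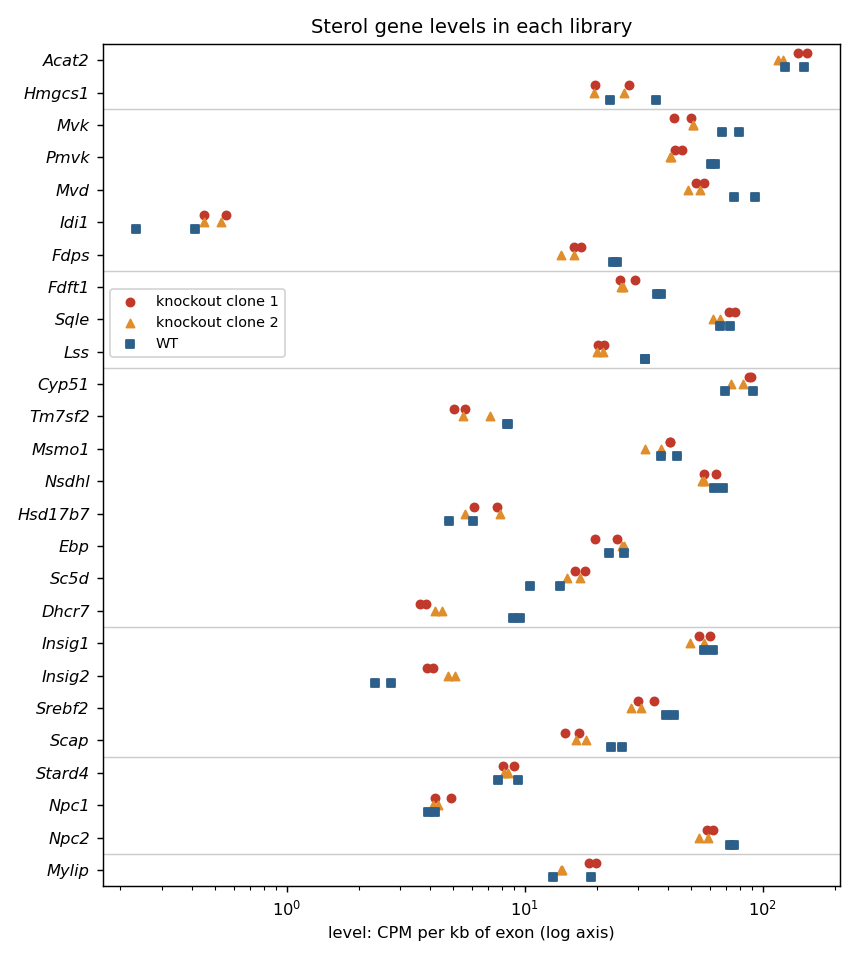
Level of each of the 26 sterol genes that passed the filter, in CPM per kilobase of exon on a log axis, with 1 point for each library of clone 1, clone 2 and WT; grey lines part the roles in pathway order. The 4 knockout libraries lie left of both WT libraries for Mvk, Pmvk, Mvd, Fdps, Fdft1, Lss, Tm7sf2, Dhcr7, Srebf2, Scap and Npc2, and right of both for Idi1, Sc5d and Insig2.

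Per kilobase of exon, Acat2 had the highest level in WT, at a mean of 137 CPM per kilobase, followed by Mvd at 83.9, Cyp51 at 80.2, Npc2 at 74.0, Mvk at 73.5 and Sqle at 69.4 CPM per kilobase. From Mvd to Sqle, the WT libraries of each gene overlapped with those of the next in this order. At the low end were Hsd17b7 at a WT mean of 5.43, Npc1 at 4.05, Insig2 at 2.54 and Idi1 at 0.322 CPM per kilobase, and Dhcr7 had 9.22 CPM per kilobase. The length used joins all annotated exons of a gene, which can be far longer than its longest transcript. It was 11317 against 5756 bases for Npc1 and 5817 against 2815 bases for Dhcr7. An order by transcript length may thus differ.

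The first steps join acetyl-CoA units into the precursor of mevalonate, and neither of the 2 genes measured here passed the test. Acat2, the cytosolic acetoacetyl-CoA thiolase, had 389 and 357 CPM in clone 1, 295 and 309 CPM in clone 2, against 380 and 316 CPM in WT. Its clone 1 libraries overlapped with WT, while both clone 2 libraries lay below WT and clone 1. Its log2 fold change over both clones was −0.05 ± 0.12 (SE; adjusted p = 0.787). Of its 50-base stretches, 45.9% also occur in Acat3 or Tcp1, so its count rests on the remainder and is uncertain. Hmgcs1, the cytosolic HMG-CoA synthase, had 90.6 and 125 CPM in clone 1, 120 and 89.7 CPM in clone 2, against 105 and 164 CPM in WT. The WT libraries lay furthest apart, and the log2 fold change was −0.35 ± 0.18 (adjusted p = 0.139). It was −0.63 (adjusted p = 3.48e-05) without the first WT library and 0.03 (adjusted p = 0.903) without the second, so its value depended on which WT library was kept.

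From mevalonate to farnesyl pyrophosphate, the branch point from which both sterols and other isoprenoids are made, 4 of 5 genes fell. Mvk, mevalonate kinase (chromosome 5, 114444269 to 114460591 of GRCm38), had 134 and 113 CPM in clone 1, 136 and 136 CPM in clone 2, against 213 and 180.4 CPM in WT. All knockout libraries lay below WT, and the log2 fold change over both clones was −0.60 ± 0.12 (SE; adjusted p = 0.00147). Pmvk, phosphomevalonate kinase (chromosome 3, 89454541 to 89469013), had 78.3 and 73.2 CPM in clone 1, 69.5 and 70.7 CPM in clone 2, against 108 and 103 CPM in WT. Its 4 knockout libraries sat close together, −0.53 ± 0.11 from WT (adjusted p = 0.00161). Mvd, which decarboxylates mevalonate pyrophosphate (chromosome 8, 122433601 to 122443422), had 105 and 96.9 CPM in clone 1, 90.5 and 101 CPM in clone 2, against 171 and 140.5 CPM in WT. Its fall was −0.66 ± 0.12 (adjusted p = 7.48e-04). Fdps, farnesyl pyrophosphate synthase (chromosome 3, 89093588 to 89101959), had 72.6 and 67.7 CPM in clone 1, 59.8 and 67.9 CPM in clone 2, against 103 and 99.1 CPM in WT. The change was −0.59 ± 0.11 (adjusted p = 0.00105), and no knockout library reached either WT library. Gm43738 overlaps 26.7% of the exonic bases of Fdps on the same strand, so in this layout reads there are counted for neither.

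Idi1, the isopentenyl pyrophosphate isomerase between Mvd and Fdps, had 31 and 31 counts in clone 1, 30 and 24 counts in clone 2, against 3 and 16 counts in WT. That is 1.57 and 1.95 CPM in clone 1, 1.85 and 1.57 CPM in clone 2, against 0.815 and 1.44 CPM in WT. All 4 knockout libraries lay above WT, but the log2 fold change of 0.44 ± 0.35 did not pass the test (adjusted p = 0.362). The value rests on few counts, and 30.5% of the 50-base stretches of Idi1 occur in other genes as well.

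Squalene synthesis commits the route to sterols. Fdft1, squalene synthase (chromosome 14, 63145150 to 63179578), had 123 and 107 CPM in clone 1, 110 and 107 CPM in clone 2, against 158 and 152 CPM in WT. It fell by 0.48 ± 0.11 on the log2 scale (adjusted p = 0.00426). Ctsb overlaps 18.3% of its exonic bases on the opposite strand, and 30.7% of its 50-base stretches occur in Ctsb or Gm6781. Sqle, squalene epoxidase, a rate-controlling oxygenase, had 424 and 400.2 CPM in clone 1, 364 and 344 CPM in clone 2, against 365 and 405 CPM in WT. Its WT libraries lay within the range of the knockout libraries, and its log2 fold change was −0.01 ± 0.11 (adjusted p = 0.944). Lss, lanosterol synthase (chromosome 10, 76531588 to 76557138), had 231 and 218 CPM in clone 1, 229 and 217 CPM in clone 2, against 345 and 345 CPM in WT. The libraries of each group lay close together, and the difference was −0.62 ± 0.10 (adjusted p = 4.65e-04).

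Of the 8 enzymes that turn lanosterol into cholesterol, 2 fell, 1 rose and 5 did not pass the test. Dhcr7, the 7-dehydrocholesterol reductase that makes cholesterol at the end of the route (chromosome 7, 143823145 to 143848410), had 22.4 and 21.0 CPM in clone 1, 24.3 and 26.2 CPM in clone 2, against 51.9 and 55.4 CPM in WT. At −1.20 ± 0.12 (adjusted p = 6.19e-06), or 56.5% below WT, its change was the largest of the 26 genes, in the fit with all 6 libraries. Tm7sf2, a sterol C14 reductase (chromosome 19, 6062821 to 6068373), had 22.2 and 24.7 CPM in clone 1, 24.3 and 31.4 CPM in clone 2, against 37.5 and 37.1 CPM in WT. It fell by 0.55 ± 0.14 on the log2 scale (adjusted p = 0.00915). Vps51 shares 12.1% of its exonic bases on the same strand. Sc5d, the lathosterol oxidase (chromosome 9, 42251595 to 42264256), rose, with 78.7 and 87.4 CPM in clone 1, 83.3 and 73.0 CPM in clone 2, against 51.1 and 68.6 CPM in WT. Its log2 fold change of 0.41 ± 0.14 (adjusted p = 0.0318) was lost without the first WT library, at 0.23 (adjusted p = 0.231), and was 0.66 without the second. The call was lost too without the second clone 1 library, at 0.36 (adjusted p = 0.0895), and without the first clone 2 library, at 0.36 (adjusted p = 0.114).

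The other enzymes of this stretch overlapped between knockout and WT. Cyp51, the lanosterol demethylase, had 393 and 388 CPM in clone 1, 363 and 324 CPM in clone 2, against 305 and 403 CPM in WT (log2 fold change 0.05 ± 0.13; adjusted p = 0.816). Msmo1, the C4-methyl oxidase, had 250.1 and 249 CPM in clone 1, 230.2 and 197 CPM in clone 2, against 229 and 268 CPM in WT (−0.11 ± 0.12; adjusted p = 0.503). Nsdhl, the dehydrogenase that works beside it, had 181 and 162 CPM in clone 1, 161 and 158 CPM in clone 2, against 194 and 178.2 CPM in WT. Nsdhl differed by −0.17 ± 0.11 (adjusted p = 0.257) and Ebp, the sterol isomerase, by −0.01 ± 0.13 (adjusted p = 0.961). Ebp had 56.2 and 45.6 CPM in clone 1, 59.3 and 60.3 CPM in clone 2, against 60.0 and 52.0 CPM in WT. Hsd17b7, the 3-ketosteroid reductase of the route, had 31.3 and 39.0 CPM in clone 1, 40.3 and 28.7 CPM in clone 2, against 24.5 and 31.0 CPM in WT. Its log2 fold change was 0.30 ± 0.17 (adjusted p = 0.200) and passed the test only without the second WT library, at 0.52 (adjusted p = 0.0382).

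**Figure D2:**
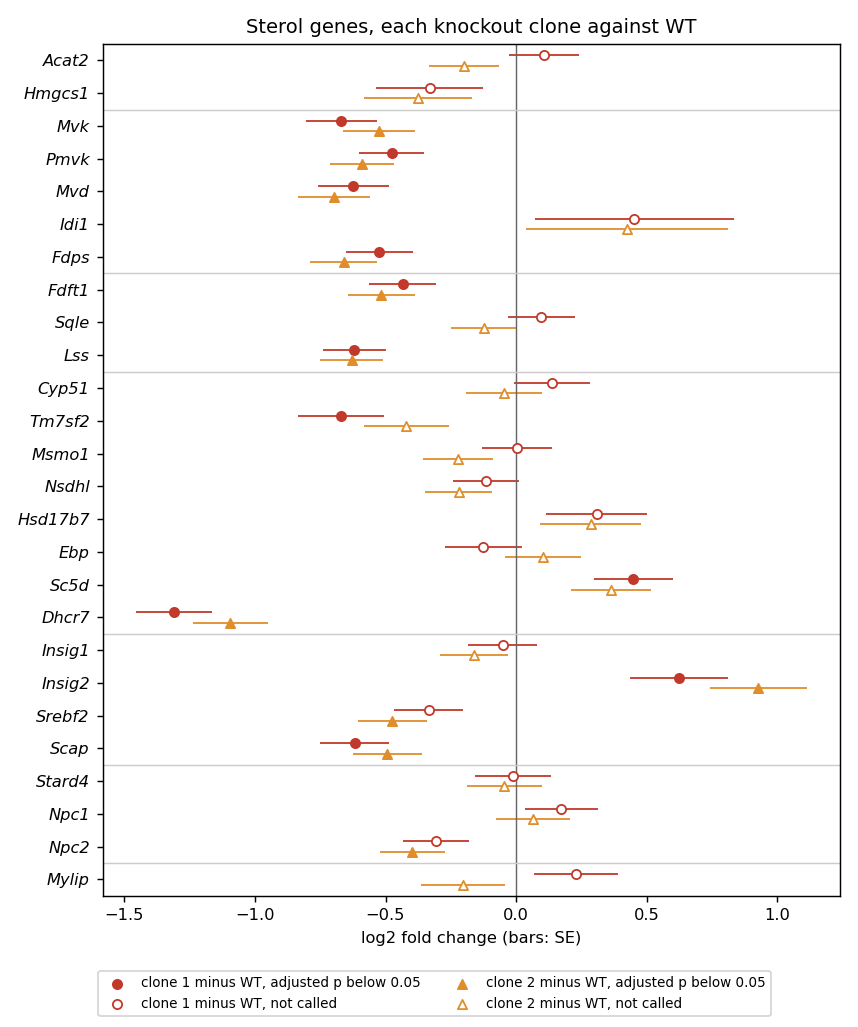
Log2 fold change of each sterol gene in clone 1 over WT (circles) and clone 2 over WT (triangles), with bars for the SE; filled symbols mark an adjusted p below 0.05. Dhcr7 lies furthest left, at −1.31 in clone 1 and −1.09 in clone 2, and Insig2 furthest right, at 0.62 in clone 1 and 0.93 in clone 2.

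In the sensing machinery, 2 of 4 genes fell, 1 rose and 1 did not pass the test. Scap, the sterol-sensing escort of SREBP-2 (chromosome 9, 110333288 to 110384950), had 125 and 109 CPM in clone 1, 121 and 134 CPM in clone 2, against 190.2 and 171 CPM in WT. Its knockout libraries all lay below WT, at −0.56 ± 0.11 (SE; adjusted p = 0.00201). The locus 5830462I19Rik overlaps 13.2% of its exonic bases on the opposite strand. Srebf2 (chromosome 15, 82147181 to 82205379) had 249.9 and 214 CPM in clone 1, 200.2 and 221 CPM in clone 2, against 304 and 282 CPM in WT. Its change was −0.41 ± 0.11 (adjusted p = 0.0132), and the call was lost without the second clone 1 library (−0.36; adjusted p = 0.0612) or the first clone 2 library (−0.38; adjusted p = 0.0692). Insig2, one of the proteins that retain Scap (chromosome 1, 121304353 to 121332589), rose, with 14.3 and 13.5 CPM in clone 1, 16.6 and 17.7 CPM in clone 2, against 8.15 and 9.47 CPM in WT. The log2 fold change was 0.78 ± 0.17 (adjusted p = 0.00310), or 71.2% above WT. Insig1, its paralogue and itself an SREBP target, had 60.2 and 54.1 CPM per kilobase in clone 1, 56.4 and 49.5 CPM per kilobase in clone 2, against 56.6 and 61.7 CPM per kilobase in WT. For Insig1, clone 1 overlapped with WT, while both clone 2 libraries lay just below WT. The log2 fold change of Insig1 over both clones was −0.11 ± 0.11 (adjusted p = 0.501). Its WT mean of 59.1 CPM per kilobase lay above that of Insig2, at 2.54 CPM per kilobase.

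Of the carriers that move sterol within the cell, Npc2 fell and the other two did not pass the test. Npc2, which binds cholesterol in the lumen of lysosomes (chromosome 12, 84754562 to 84773152), had 334 and 316 CPM in clone 1, 292 and 319 CPM in clone 2, against 411 and 394 CPM in WT. Its change was −0.35 ± 0.11 (adjusted p = 0.0207), with all knockout libraries below WT. The call was lost without the first WT library (−0.32; adjusted p = 0.0578), the second clone 1 library (−0.34; adjusted p = 0.0738), the first clone 2 library (−0.33; adjusted p = 0.109) or the second clone 2 library (−0.39; adjusted p = 0.0529). Npc1, the membrane protein that takes cholesterol over from Npc2, had 55.3 and 47.5 CPM in clone 1, 49.0 and 46.6 CPM in clone 2, against 47.6 and 44.2 CPM in WT (0.12 ± 0.12; adjusted p = 0.493). Stard4, a soluble sterol carrier, had 45.1 and 50.4 CPM in clone 1, 47.6 and 45.7 CPM in clone 2, against 42.9 and 52.1 CPM in WT (−0.03 ± 0.13; adjusted p = 0.888).

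The efflux pumps, which liver X receptors switch on when sterol is in excess, were hardly detected. Abca1 had 0 counts in clone 1, 0 and 1 counts in clone 2, against 0 counts in WT. Abcg1 had 1 and 4 counts in clone 1, 2 and 0 counts in clone 2, against 0 counts in both WT libraries. A count of 0 allows up to 3 counts, or 0.152 to 0.199 CPM in the knockout libraries and 0.264 and 0.775 CPM in WT. These bounds, unlike the other CPM, are on the unscaled library total. No difference was detectable at this depth. Mylip, also called Idol, a ubiquitin ligase that sends lipoprotein receptors to lysosomes and another liver X receptor target, had 64.5 and 59.8 CPM in clone 1, 46.4 and 45.8 CPM in clone 2, against 42.4 and 61.4 CPM in WT. Its log2 fold change over both clones was 0.01 ± 0.14 (adjusted p = 0.953).

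The clones were then taken one at a time. The comparisons share the WT libraries, so they are not independent of each other. In clone 1, 9 of the 26 genes fell and 2 rose, where 16.5% of all tested genes fell and 15.2% rose. In clone 2, 10 fell and 1 rose, where 14.5% of all tested genes fell and 12.9% rose. The median log2 fold change of the 26 genes was −0.12 in clone 1 and −0.22 in clone 2, and over all tested genes 0.01 in clone 1 and 0.00 in clone 2. Dhcr7 fell by 1.31 ± 0.14 (SE) on the log2 scale in clone 1 (adjusted p = 1.71e-05) and by 1.09 ± 0.14 in clone 2 (adjusted p = 1.08e-04). Mvk, Pmvk, Mvd, Fdps, Fdft1, Lss and Scap were also called lower in each clone, with log2 fold changes of −0.67 to −0.43 in clone 1 and −0.70 to −0.49 in clone 2. Tm7sf2 was called in clone 1, at −0.67 (adjusted p = 0.00737), while in clone 2 it was at −0.42 (adjusted p = 0.0714). Srebf2 and Npc2 were called in clone 2, at −0.47 (adjusted p = 0.0166) and −0.40 (adjusted p = 0.0300), while in clone 1 they were at −0.34 (adjusted p = 0.0667) and −0.31 (adjusted p = 0.0753). Insig2 was called higher in each, at 0.62 in clone 1 (adjusted p = 0.0206) and 0.93 in clone 2 (adjusted p = 0.00254). Sc5d was called in clone 1, at 0.45 (adjusted p = 0.0368), while in clone 2 it was at 0.36 (adjusted p = 0.0930). Rescaled by chromosome, Srebf2 was called in clone 1 (−0.40; adjusted p = 0.0300) and not in clone 2 (−0.36; adjusted p = 0.0523), and Npc2 was called in each, at −0.67 in clone 1 (adjusted p = 0.00301) and −0.56 in clone 2. Tm7sf2 was then called in clone 2 (−0.50; adjusted p = 0.0417), and Insig2 was not called in clone 1 (0.46; adjusted p = 0.0746). Clone 1 still had 2 genes called higher in that fit, and clone 2 had 11 called lower. A further gene was thus newly called in each clone. With the offset for GC content and length, Scap was not called in clone 2 (−0.23; adjusted p = 0.0934), nor was Srebf2 (−0.25; adjusted p = 0.0781), and Sc5d was not called in clone 1 (0.15; adjusted p = 0.274). That offset gave 10 genes lower in clone 1, not 9, and 12 in clone 2, not 10. Other genes were thus newly called lower in each clone. Thinned to equal depth, Fdft1 was not called in clone 1 (−0.36; adjusted p = 0.0589), and with DESeq2 Insig2 was not called in clone 1 (0.64; adjusted p = 0.0597). Several of these calls needed both libraries of the clone. Without the second clone 1 library, 5 genes were called lower in clone 1, with Pmvk (−0.44), Fdps (−0.48), Fdft1 (−0.35) and Scap (−0.53) no longer called. Without the first clone 2 library, 3 genes were called lower in clone 2, namely Mvd, Lss and Dhcr7, and without the second clone 2 library 5 were. Insig2 in clone 1 was at 0.59 (adjusted p = 0.0637) without its first library and at 0.66 (adjusted p = 0.0532) without its second. The Sc5d call in clone 1 was lost without the first WT library (0.27; adjusted p = 0.187) or any 1 of the 4 knockout libraries (0.37 to 0.53; adjusted p = 0.0538 to 0.211). The Npc2 call in clone 2 was lost without the first WT library or any 1 of the 4 knockout libraries (−0.47 to −0.35; adjusted p = 0.0505 to 0.271).

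The difference between the clones was tested directly as clone 2 minus clone 1. Of the 26 genes, 0 were called in either direction by edgeR, where 1.18% of all tested genes were called higher and 2.36% lower, and DESeq2 also called 0. At an unadjusted p below 0.05, 2 genes stood out, and both were lower in clone 2. Mylip differed by −0.43 ± 0.16 (adjusted p = 0.169), and Acat2 by −0.31 ± 0.13 (adjusted p = 0.274). Mylip was called without the first WT library (−0.43; adjusted p = 0.0187) or without the second (−0.43; adjusted p = 0.0201). Both clone 2 libraries lay below both clone 1 libraries for 7 genes and above both for 4, where 24.5% of all tested genes lay below and 23.4% above in this way. The median difference was −0.08 over the 26 genes and 0.009 over all tested genes.

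The chromosomes of the genes were set beside these changes, because the median change of all genes differed between chromosomes. Over the mean of both clones, the median log2 fold change of all tested genes was lowest on chromosome 4, at −0.37, followed by chromosome 13 at −0.30 and chromosome 7 at −0.26, with 46.0%, 35.9% and 36.5% of their genes called lower. Of the sterol genes, 5 lie there, namely Abca1 on chromosome 4, Dhcr7 on chromosome 7, and Hmgcs1, Idi1 and Mylip on chromosome 13. Dhcr7 was the 1 gene called lower among the 4 of these that were tested, and it lay 0.94 below the median of its chromosome on the log2 scale. Hmgcs1, at −0.35, was near the chromosome 13 median of −0.30, and Idi1, at 0.44, and Mylip, at 0.01, were above it. The other 10 falls lay on other chromosomes, and 6 of the 11 on chromosomes whose median was above 0, such as Npc2 on chromosome 12, with a median of 0.25. When each library was rescaled by chromosome, the counts stayed at 11 lower and 2 higher over both clones, and Dhcr7 was still called lower, at −0.94, while Npc2 was at −0.61. The same rescaling gave 11 lower in clone 1, not 9, and 11 in clone 2, not 10.

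**Figure D3:**
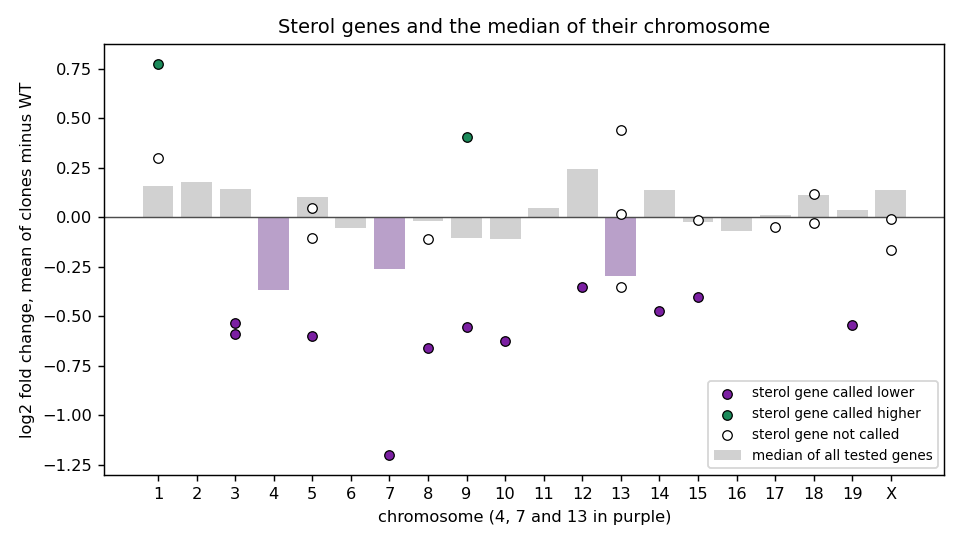
Log2 fold change over the mean of both clones for each sterol gene (points, coloured by call) and the median of all tested genes on its chromosome (bars, with 4, 7 and 13 in purple). Of the 11 genes called lower, Dhcr7 on chromosome 7 is the 1 on a purple bar, and it lies well below that bar's −0.26.

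Base composition moved with these changes. The longest transcripts of the 11 genes called lower held 48.7% to 59.1% G and C, those of Insig2 and Sc5d 46.0% and 42.9%, and those of the 13 not called 41.9% to 50.9%. Over all tested genes in 5 equal groups of GC content from low to high, the median log2 fold change over both clones was 0.37, 0.14, −0.03, −0.12 and −0.21. The share of genes called lower in these groups was 6.44%, 11.2%, 17.5%, 24.4% and 31.4%. Of the sterol genes, 0 of 3 and 0 of 7 were called lower in the 2 GC-poorest groups, then 4 of 9, 2 of 2 and 5 of 5 in the groups above. The first WT library stood apart in this measure, with a median deviation from the mean of the libraries of −0.41 in the GC-poorest group and 0.21 in the GC-richest. The second WT library had −0.13 in the GC-poorest group and 0.08 in the GC-richest, and the 4 knockout libraries had 0.00 to 0.24 in the GC-poorest and −0.13 to −0.01 in the GC-richest. After an offset for GC content and length in each library, 14 sterol genes were called lower and 1 higher. Of the 11 falls, 10 stayed called, among them Dhcr7 at −1.10, Lss at −0.76, Mvd at −0.43, Mvk at −0.41, Pmvk at −0.34 and Scap at −0.31 (adjusted p = 0.0129). Srebf2 was then at −0.19 (adjusted p = 0.0920) and Sc5d at 0.09 (adjusted p = 0.457), both no longer called. Newly called lower were Hmgcs1 at −0.65 (adjusted p = 0.00325), Msmo1 at −0.36 (adjusted p = 0.00842), Nsdhl at −0.31 (adjusted p = 0.0291) and Stard4 at −0.30 (adjusted p = 0.0203). The cause of the trend with base composition was not tested.

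**Figure D4:**
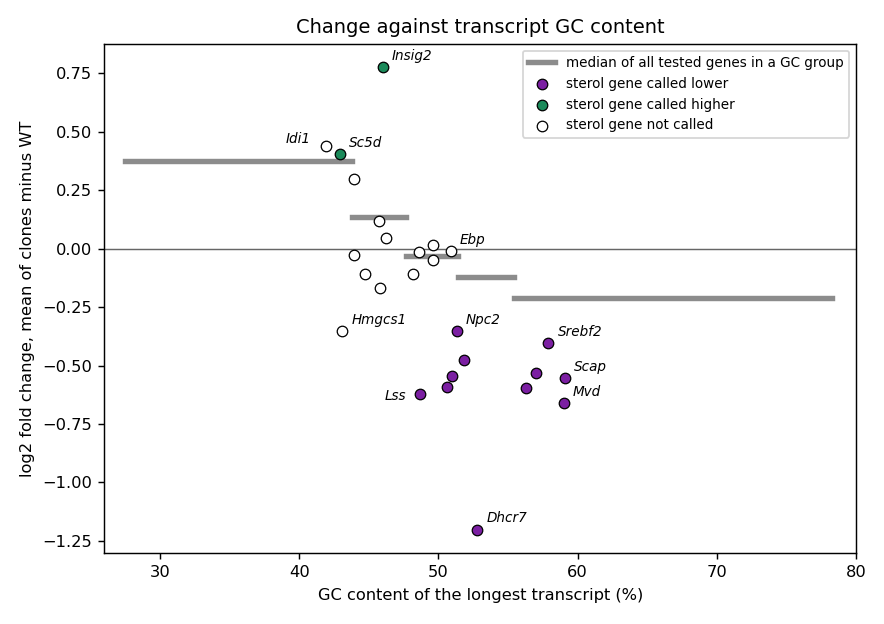
Log2 fold change over the mean of both clones against the GC content of the longest transcript, for the 26 sterol genes tested (points, coloured by call), with grey lines at the median of all tested genes in each of 5 equal groups by GC. The purple points of the genes called lower lie right of 48% GC and below the grey lines, with Dhcr7 lowest at −1.20.

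Genes around the route were counted in the same fit over both clones, in which 18.2% of all tested genes fell and 16.6% rose. Of 13 genes that process SREBP or degrade sterol-regulated enzymes, 2 fell, 1 rose and 10 did not pass the test, which is no larger a share than over all tested genes, with a median of 0.08 against 0.005 over all tested genes. Mbtps1, the site-1 protease that cuts SREBPs in the Golgi, had 185 and 173 CPM in clone 1, 186 and 189 CPM in clone 2, against 235 and 240.5 CPM in WT (−0.38 ± 0.10; adjusted p = 0.0130). Vcp, the ATPase that pulls proteins out of the membrane for degradation, was at −0.33 ± 0.12 (adjusted p = 0.0419). The Vcp call was lost without the first WT library or any 1 of the 4 knockout libraries, with values of −0.37 to −0.19, and its sign turned, to 0.03, after rescaling by chromosome. It was also lost without the low-count filter, after thinning to equal depth, with 2 groups and with DESeq2. Erlin1, which links Insig-bound enzymes to degradation, was at 0.48 ± 0.17 (adjusted p = 0.0442). Erlin1 was at 0.85 without the second WT library, and its call was lost without the first WT library (0.27), the second clone 1 library (0.39) or the first clone 2 library (0.39). The Erlin1 call was also lost with the chromosome offset, with the GC and length offset and with 2 groups. Mbtps1 was not called without the second clone 1 library (−0.36) or the first clone 2 library (−0.38). Srebf1, which encodes the SREBP of fatty acid synthesis, was at −0.11 ± 0.12 (adjusted p = 0.483). In clone 1 taken alone, 1 of the 13 was called lower and 2 higher, where 16.5% of all tested genes fell and 15.2% rose. In clone 2 taken alone, 0 of the 13 were called, where 14.5% of all tested genes fell and 12.9% rose. Mbtps1, Vcp and Erlin1 were thus not called in clone 2.

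The branch that leads from farnesyl pyrophosphate to other isoprenoids held 14 genes, of which 3 fell and 2 rose, close to the shares of all tested genes, with a median of 0.02. Dhdds, a subunit of the enzyme that makes the dolichol chain, had 37.9 and 32.4 CPM in clone 1, 35.0 and 38.7 CPM in clone 2, against 67.1 and 61.2 CPM in WT (−0.83 ± 0.12; adjusted p = 1.96e-04). Icmt, which methylates prenylated proteins, was at −0.60 ± 0.11 (adjusted p = 9.32e-04), and Rabggta, a subunit of the transferase that prenylates Rab proteins, at −0.63 ± 0.17 (adjusted p = 0.0105). Dhdds and Icmt lie on chromosome 4, where rescaling by chromosome left Dhdds at −0.47 (adjusted p = 0.0101) and Icmt at −0.24 (adjusted p = 0.0980). Rabggta was not called without the first WT library (−0.37; adjusted p = 0.118). Pdss1, which makes the side chain of coenzyme Q, was higher, at 0.77 ± 0.19 (adjusted p = 0.00706), and so was Zmpste24, the protease that trims prelamin A, at 0.57 ± 0.15 (adjusted p = 0.00893). After the offset for GC content and length, Pdss1 was at 0.35 (adjusted p = 0.247) and Zmpste24 at 0.15 (adjusted p = 0.302), while rescaling by chromosome put Zmpste24 at 0.93.

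Of 23 genes of sterol trafficking, storage and turnover, 17 were tested, 6 fell and 2 rose, where 18.2% of all tested genes fell and 16.6% rose, and the median was −0.22. Stard3nl, a late endosome tether, was at −0.62 ± 0.12 (adjusted p = 0.00150), Osbpl5, a lipid transfer protein of the endoplasmic reticulum, at −0.61 ± 0.12 (adjusted p = 0.00145), and Cav1, the coat protein of caveolae, at −0.56 ± 0.12 (adjusted p = 0.00225). Stard3nl lies on chromosome 13 and Osbpl5 on chromosome 7, and rescaling by chromosome left them at −0.35 (adjusted p = 0.0445) and −0.35 (adjusted p = 0.0386). Cav1 was at −0.86 after the offset for GC content and length. Nceh1, a cholesteryl ester hydrolase, was higher at 0.68 ± 0.23 (adjusted p = 0.0363), as was Osbpl8, another lipid transfer protein, at 0.55 ± 0.17 (adjusted p = 0.0222). The Nceh1 call was lost without the second clone 1 library (0.46) or the first clone 2 library (0.61), and the Osbpl8 call without the second library of WT (0.58), of clone 1 (0.45) or of clone 2 (0.49). After the offset for GC content and length, Nceh1 was at 0.45 (adjusted p = 0.107) and Osbpl8 at 0.08 (adjusted p = 0.667). The Nceh1 call was also lost with the chromosome offset and with 2 groups, and the Osbpl8 call after thinning to equal depth. Taken alone, clone 1 had 5 of the 17 called lower and 0 higher, so Nceh1 and Osbpl8 were not called there. Clone 2 alone had 5 lower and 2 higher. Of all tested genes, 16.5% fell and 15.2% rose in clone 1, and 14.5% and 12.9% in clone 2. In clone 2 against clone 1, 1 of the 17 was called lower and 0 higher, where 2.36% and 1.18% of all tested genes were.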

How the data were processed

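RNA of 6 NIH/3T3 samples in 3 groups was used. Per the labels' protocols, ribosomal RNA was removed and strand-specific libraries were made. FastQC, STAR 2.6.0c and GRCm38 are named in the submitters' processing notes. Each deposited table gives raw counts of reads for every Ensembl gene, once over both strands and once per strand, in STAR's layout, as the row names show. The sources used here do not name the annotation release. The column for the reverse strand was taken, as this kind of kit requires. The opposite strand held 4.68% to 6.10% of stranded counts. Rows with no gene name, 46.6% to 50.5% of reads, were left out. Reads with several hits or over overlapping genes are not in gene counts of this layout, so genes with near-identical copies are uncertain.

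Symbols came from GENCODE M21 for 54079 of 54146 identifiers, and Spring1 from a RefSeq synonym. Genes were filtered with filterByExpr at a minimum count of 10, scaled by TMM and tested with edgeR 4.0.16 (R 4.3.3) by the quasi-likelihood test. One fit held all 6 libraries, with 3 residual degrees of freedom. Benjamini-Hochberg adjustment ran over all 13120 genes tested, at 0.05. CPM are on the TMM-scaled library size, with factors of 0.951 to 1.03. Errors are SE of the log2 fold change, derived as its absolute value over the square root of the quasi-likelihood F statistic. Bounds on counts cover counting error only, and their CPM are on the unscaled library total. The test was run on simulated counts with 200 changed genes and the same spread for every gene. These counts held no trend by GC content or chromosome, so the run says nothing of the p-values under such trends. Libraries of a group differed beyond sampling noise (chi-square over degrees of freedom 19.4 for clone 1, 22.2 for clone 2, 13.6 for WT). The 28 genes, the neighbouring lists and the markers were chosen with earlier results of these data known. From each neighbouring list, up to 3 called genes in each direction were named by size of change, with Srebf1 added after its value was seen. Alternatives were RLE size factors, DESeq2 1.42.0, no low-count filter, a minimum count of 30, unstranded counts, a replicate block, 2 groups, thinning to 3873249 counts, offsets by chromosome and by GC content and length, and leaving out each library.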

Additional observations from a re-analysis of the deposited data

How the results depend on the processing

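The fits with RLE size factors, a minimum count of 30, unstranded counts or a replicate block changed no call of a sterol gene, and with the block the counts over both clones stayed at 11 lower and 2 higher. Same-numbered libraries deviated together by 0.267 between clone 1 and WT, −0.094 between clone 2 and WT and −0.113 between the clones, so the numbers were not taken as a pairing. Sterol genes called higher over both clones were 1, not 2, with 2 groups or the GC and length offset, and in clone 1 they were 1 with that offset or with DESeq2. In clone 2 they were 2 without the low-count filter. Leaving out 1 library gave 1 to 3 higher and 9 to 11 lower over both clones, 0 to 4 higher and 5 to 10 lower in clone 1, 1 to 2 higher and 3 to 11 lower in clone 2, and 0 higher and 0 to 1 lower in clone 2 against clone 1. Genes called over the whole table in clone 2 against clone 1 were 264 higher and 549 lower without the filter, 58 and 163 after thinning, 331 and 571 with the GC and length offset, and 97 higher with the chromosome offset. Leaving out 1 library gave 46 to 519 higher and 110 to 689 lower there, 932 to 2399 higher and 1273 to 2202 lower in clone 1 against WT, and 754 to 2227 higher and 915 to 1889 lower in clone 2 against WT. The share of all promoters with the sterol element was 0.551% with the exact letters TCACCCCAC. Signs turned in genes that were not called. Without the filter these were Acat2 (0.003), Sqle (0.037), Ebp (0.039) and Stard4 (0.021). With thinning it was Stard4 (0.002), with the chromosome offset Sqle (0.013), Cyp51 (−0.063) and Npc1 (−0.01), and with the GC and length offset Cyp51 (−0.10), Ebp (0.066) and Npc1 (−0.13). Over the fits that leave out 1 library, log2 fold changes ran from −0.17 to 0.086 for Acat2, −0.63 to 0.03 for Hmgcs1, −0.085 to 0.071 for Sqle, −0.14 to 0.27 for Cyp51, −0.22 to 0.02 for Msmo1, −0.11 to 0.083 for Ebp, −0.15 to 0.14 for Stard4 and −0.20 to 0.34 for Mylip. The causes were not tested. Of the called neighbours named, Vcp turned, to 0.03 with the chromosome offset. The 3873249 counts of the first WT library limit low genes such as Idi1.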
